A study of Mus musculus with 14 samples.

Results

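The canonical histone genes of the mouse, together with the other genes that carry the same kind of symbol, were examined in chromatin immunoprecipitation (ChIP) data from ATDC5 cells. All protein-coding genes whose symbol is H1f, H2ac, H2bc, H3c or H4c followed only by a number were taken, which gave 67 of the 21887 protein-coding genes on assembled chromosomes. They comprised 10 genes for the linker histone H1, 17 for H2A, 16 for H2B, 12 for H3 and 12 for H4. ATDC5 is a mouse line derived from the teratocarcinoma AT805 and is used as a culture model of cartilage formation. From day 0 the cells were differentiated as dense droplets with β-glycerophosphate and an ascorbate, and fixed chromatin from days 0, 3 and 10 was precipitated with an antibody against H3K4me3 or against RUNX2. Each antibody and day had 2 libraries, here called replicates 1 and 2, and each library had its own deposited peak list, which gave 12 lists. All groups share the one line, no genetic change is named for any of them, and the labels do not say whether replicate libraries are separate cultures, so p-values measure only the spread between libraries, which may be technical.

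Canonical histone genes are short and intronless, are transcribed mainly while DNA is replicated, and give mRNAs that end in a stem-loop in place of a poly(A) tail. They lie in clusters where H2A and H2B genes often stand head to head, and the factor NPAT, which acts downstream of cyclin E and CDK2, drives their transcription from histone locus bodies. H3K4me3 is trimethylation of lysine 4 of histone H3, a mark of active and poised promoters, and RUNX2 is the runt-domain factor required for bone formation and for the hypertrophic maturation of chondrocytes. The symbol rule also takes in genes outside the canonical set. H1f0 and H1f10 encode replacement H1 proteins that are made outside S phase, H1f6 and H1f7 encode H1 proteins of male germ cells, H1f8 encodes the oocyte H1, and H2ac1 and H2bc1 encode the testis forms of H2A and H2B.

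By position, 63 of the 67 genes fell into 4 clusters when gaps of up to 200 kb were allowed. The chromosome 3 cluster held 10 genes over 50.3 kb. The 3 clusters on chromosome 13 are called chr13A, chr13B and chr13C in order of position, and held 17 genes over 118 kb, 5 genes over 8.54 kb and 31 genes over 404 kb. The remaining 4 genes, all of class H1, stood alone, H1f10 and H1f8 on chromosome 6 and H1f0 and H1f7 on chromosome 15. Gene spans were short, at most 1 kb in 58 of the 67 genes, against 1577 of all protein-coding genes.

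Promoter sequences are shown for 7 of the genes that are named in the peak patterns below. Each runs 5′ to 3′ on the strand of the gene, from 250 bases before the start to 50 from it, and comes from RefSeq on GRCm38.p6. Capitals mark CCAAT boxes, the TATA letters TATAAA, the octamer written ATTTGCAT and the H1 box, which is AAACACA, each read on either strand. H2ac7 and H2bc8 belong to head-to-head pairs under the peak that covered the most histone genes. H2ac1 is the testis H2A gene, counted on day 3 through a peak on the side of its partner. H4c12 and H1f10 had the strongest H3K4me3 rank of their classes on day 3. H1f2, a somatic H1 gene, and H1f6, a germ-cell H1 gene, share elements and differ in peaks. The windows lie at chr13:23574131-23574430 (plus strand) for H2ac7, chr13:23571150-23571449 (plus) for H2bc8, chr13:23934187-23934486 (plus) for H2ac1, chr13:21750504-21750803 (minus) for H4c12, chr6:87981433-87981732 (minus) for H1f10, chr13:23738557-23738856 (plus) for H1f2 and chr13:23695561-23695860 (plus) for H1f6.
H2ac7: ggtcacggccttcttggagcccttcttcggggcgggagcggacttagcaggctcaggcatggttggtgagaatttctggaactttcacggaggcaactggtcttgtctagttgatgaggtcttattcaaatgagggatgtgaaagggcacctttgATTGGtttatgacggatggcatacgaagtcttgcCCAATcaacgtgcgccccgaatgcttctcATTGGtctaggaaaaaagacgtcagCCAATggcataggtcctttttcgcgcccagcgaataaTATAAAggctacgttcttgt
H2bc8: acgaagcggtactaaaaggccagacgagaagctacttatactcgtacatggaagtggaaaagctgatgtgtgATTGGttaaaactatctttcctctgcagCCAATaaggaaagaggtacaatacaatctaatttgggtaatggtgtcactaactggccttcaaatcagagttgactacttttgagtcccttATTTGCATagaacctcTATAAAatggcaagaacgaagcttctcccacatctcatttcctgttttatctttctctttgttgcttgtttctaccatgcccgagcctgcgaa
H2ac1: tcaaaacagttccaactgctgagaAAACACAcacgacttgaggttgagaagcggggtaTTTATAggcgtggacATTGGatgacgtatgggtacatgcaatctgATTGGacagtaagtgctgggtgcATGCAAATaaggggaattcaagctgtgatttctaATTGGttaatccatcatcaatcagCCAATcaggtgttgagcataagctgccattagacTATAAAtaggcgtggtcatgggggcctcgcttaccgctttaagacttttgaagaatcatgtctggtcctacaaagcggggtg
H4c12: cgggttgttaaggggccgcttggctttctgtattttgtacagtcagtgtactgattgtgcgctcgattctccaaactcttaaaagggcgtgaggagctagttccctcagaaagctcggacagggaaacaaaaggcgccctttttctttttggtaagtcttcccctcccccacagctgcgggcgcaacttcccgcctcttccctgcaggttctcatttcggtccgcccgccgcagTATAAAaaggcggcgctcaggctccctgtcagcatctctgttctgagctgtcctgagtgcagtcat
H1f10: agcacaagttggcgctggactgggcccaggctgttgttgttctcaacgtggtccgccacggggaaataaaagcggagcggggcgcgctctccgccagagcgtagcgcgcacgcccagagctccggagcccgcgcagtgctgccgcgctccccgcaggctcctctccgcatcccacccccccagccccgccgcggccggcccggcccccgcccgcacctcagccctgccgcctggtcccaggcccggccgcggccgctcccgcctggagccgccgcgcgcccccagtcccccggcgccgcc
H1f2: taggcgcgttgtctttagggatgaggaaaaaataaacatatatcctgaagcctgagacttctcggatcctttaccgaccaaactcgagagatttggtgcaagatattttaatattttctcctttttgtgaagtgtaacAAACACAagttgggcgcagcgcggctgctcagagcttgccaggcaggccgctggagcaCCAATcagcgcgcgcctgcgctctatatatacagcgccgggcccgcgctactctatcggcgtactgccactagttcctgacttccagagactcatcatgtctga
H1f6: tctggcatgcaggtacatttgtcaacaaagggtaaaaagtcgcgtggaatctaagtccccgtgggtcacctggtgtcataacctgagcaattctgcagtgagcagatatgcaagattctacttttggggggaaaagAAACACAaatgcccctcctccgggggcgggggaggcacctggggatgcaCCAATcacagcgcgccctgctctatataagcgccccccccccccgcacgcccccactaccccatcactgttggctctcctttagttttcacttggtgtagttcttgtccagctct

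Positions count from 1 at the first base of the gene, with no position 0. H2ac7 held CCAAT letters 4 times between -95 and -3, and TATAAA only at 31 to 36, downstream of the listed start. H1f2 held CCAAT at -54 to -50 and an H1 box at -112 to -106. H1f6 held CCAAT at -65 to -61 and an H1 box at -114 to -108, an arrangement much like that of H1f2. H2bc8 held the octamer at -59 to -52 and TATAAA at -43 to -38. H2ac1 held the octamer on the opposite strand at -124 to -117 and TATAAA at -32 to -27. H4c12 held TATAAA at -16 to -11, and H1f10 held none of the 4 elements in a window that was 77.7% G and C.

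A promoter was listed for 62 of the 67 genes, 63 windows in all. CCAAT, read on both strands, was found in 52 of the 63 windows (82.5%), against 38.2% of the 21263 promoters of all protein-coding genes. TATAAA was found in 34 windows (54%), against 12.6% of all promoters. The octamer bound by POU2F1 stood in 13 windows (20.6%), 6 of H2A genes and 7 of H2B genes, against 1.66% of all promoters. The H1 box stood in 9 windows (14.3%), 5 of them of H1 genes, against 6.15%. The core of the RUNX motif, searched as TGTGGT and in a separate form as TGCGGT, stood in 10 windows (15.9%), against 21.6% of all promoters, and in none of the 7 windows shown. Windows of head-to-head genes overlap, so 1 match can count for both. The median G and C content was 45.7% in the histone gene windows and 56.3% over all promoters. These matches describe letters in a window and not binding.

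A peak was assigned to a gene when it overlapped the gene span, extended by 500 bp on either side, by at least 1 bp. List lengths for H3K4me3 were 13765 and 20863 at day 0, 28653 and 26781 at day 3, then 15219 and 29022 at day 10. For RUNX2 they were 108 and 102 at day 0, 19319 and 16859 at day 3, then 101 and 97 at day 10. Replicate 1 of H3K4me3 stood apart on days 0 and 10 with far shorter lists than replicate 2, and results that rest on these libraries are given with and without them. The depth of the libraries is unknown, so an uncalled gene may still carry the mark below the limit of its list. In bulk chromatin, fewer cells carrying a mark and less of it per cell cannot be told apart. Of 7 chondrocyte markers, 4 had an H3K4me3 peak in both libraries on day 0, 7 on day 3 and 7 on day 10. Of 3 osteoblast markers, 1 had one on day 0, 1 on day 3 and 2 on day 10. None of 3 skeletal muscle markers had one on any day, 2 of 3 neuron markers did on day 3, and 2 of 3 blood markers did on day 3 and 1 on day 10. Over all protein-coding genes the shares were 51.8% on day 0, 61.2% on day 3 and 56.5% on day 10.

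H3K4me3 covered most histone genes on every day, and no gene switched between days by the rule used here. A gene is called marked when both libraries of a day had a peak at it. H3K4me3 marked 51 of the 67 genes on day 0, against 51.8% of all protein-coding genes. It marked 64 genes on day 3, against 61.2% of all genes, and 61 on day 10, against 56.5%. As shares of the 67 genes these are 76.1% on day 0, 95.5% on day 3 and 91.0% on day 10. Without replicate 1 of these days the counts were 64 on day 0 and 64 on day 10. Requiring a summit inside the window left 40 genes marked on day 3, and requiring peaks over at least 50% of the window left 16 on day 0 and 37 on day 10. Short genes outside the set were marked far less often, at 2.63% on day 0, 3.03% on day 3 and 2.9% on day 10 of 1519 genes of at most 1 kb. RUNX2 marked 2.83% of them on day 3. Transcription was not measured for either set.

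By class, 6 of 10 H1 genes were marked on day 0, 7 on day 3 and 7 on day 10. Among H2A genes, 14 of 17 were marked on day 0, 17 on day 3 and 16 on day 10. H2B genes gave 14 of 16 on day 0, 16 on day 3 and 15 on day 10. H3 genes gave 9 of 12 on day 0 and 12 on each later day, and H4 genes 8 of 12 on day 0, 12 on day 3 and 11 on day 10. By cluster, every gene of the chromosome 3, chr13A and chr13B clusters was marked on all 3 days. In chr13C, 17 of 31 genes were marked on day 0, 30 on day 3 and 27 on day 10. The changes in the class counts thus came from chr13C alone.

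**Figure D1:**
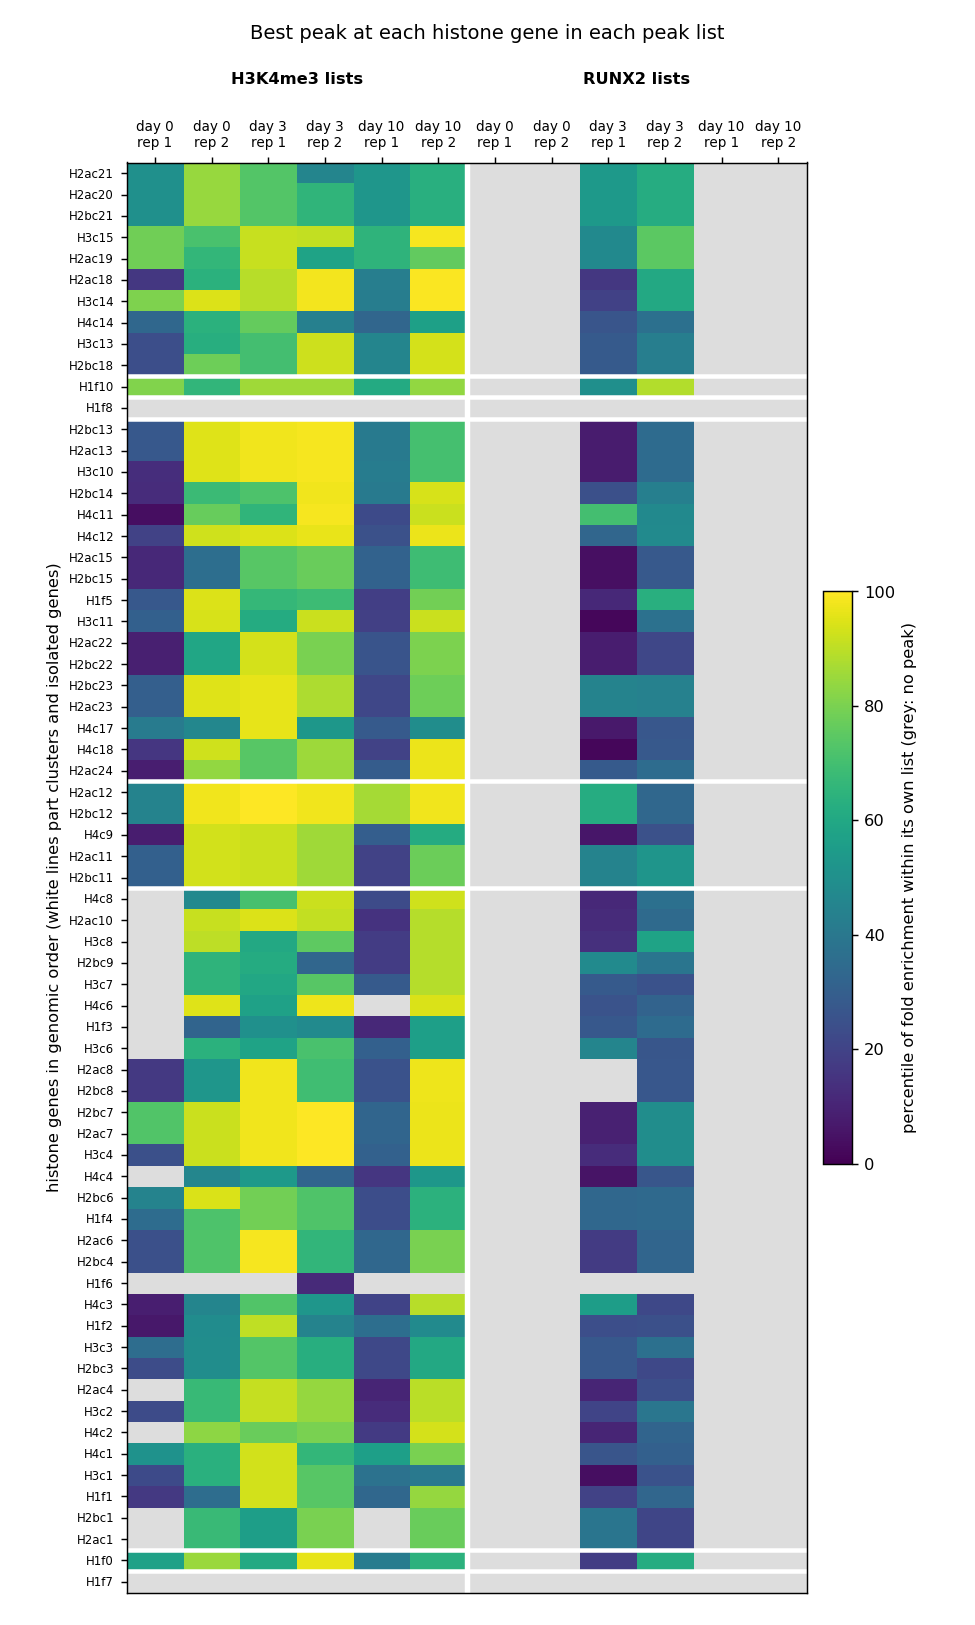
Percentile of the fold enrichment of the best peak at each of the 67 histone genes (rows, in genomic order) within its own list, for the 6 H3K4me3 and 6 RUNX2 lists (columns), with grey where no peak was listed. Among the H3K4me3 columns, grey cells in chr13C stand mostly under day 0 replicate 1, with some under day 10 replicate 1 and at H1f6. The RUNX2 columns of days 0 and 10 are grey throughout.

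No histone gene gained H3K4me3 in both libraries of day 3 after having had none in either library of day 0, against 3.17% of all genes. None lost it, against 0.0137%. Between day 10 and day 3 none gained it (0.0503% of all genes) and none lost it (0.576%), and between day 10 and day 0 none gained it (1.17%) and none lost it (0.00457%). Per library, 64 and 65 histone genes had a peak on day 3, a mean of 64.5 ± 0.707, against 51 and 64 on day 0, a mean of 57.5 ± 9.19 (SD, n = 2 each). A count of 64 occurred on both days, so the groups touched. In single lists, 52 and 59% of all genes had a peak at day 0, 63.8 and 62.8% at day 3, and 56.6 and 63.9% at day 10. The difference of 7 genes had a two-sided exact permutation p of 0.667, where 2 against 2 libraries allow no p below 0.333, and none of these comparisons could pass 0.05. Day 10, with 61 and 64 genes, differed from day 3 by -2 genes (exact permutation p of 0.667) and from day 0 by 5 genes (exact permutation p of 1). Without replicate 2 of day 0, 13 genes gained H3K4me3 on day 3 and 10 on day 10. Without replicate 1 of day 0, no gene did on either day, and day 10 then differed from day 0 by -1.5 genes per library. Without replicate 1 of day 3, 1 gene, H1f6, counted as gained on day 3 against day 0 and as lost on day 10 against day 3. Without replicate 2 of day 10, 3 genes, H4c6, H2bc1 and H2ac1, counted as lost on day 10 against day 3. The larger gains thus rest on replicate 1 of day 0.

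**Figure D2:**
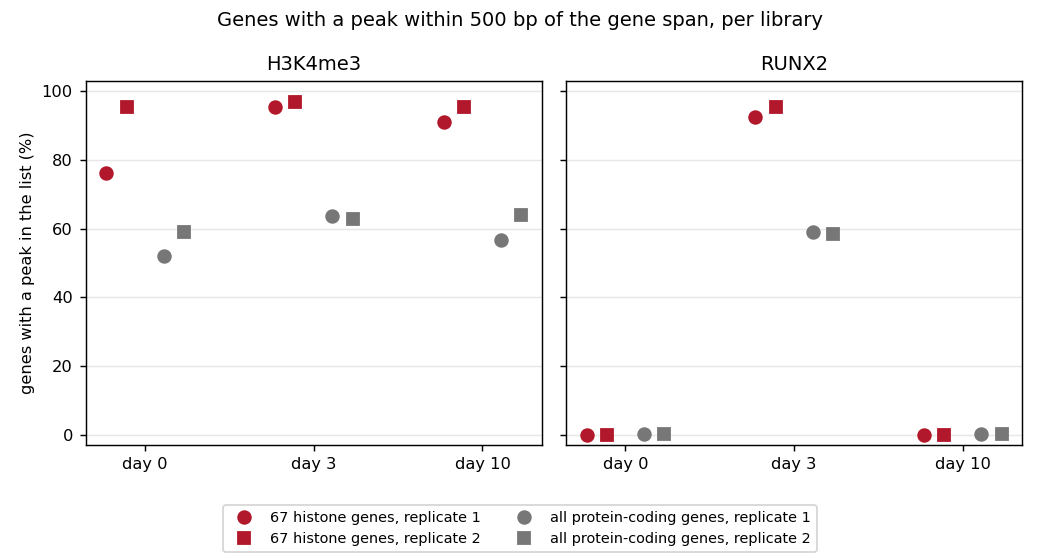
Share of genes with a peak within 500 bp of the gene span, in percent, for the 67 histone genes (red) and all protein-coding genes (grey), by day, with a circle for replicate 1 and a square for replicate 2 and H3K4me3 and RUNX2 in separate panels. The histone genes lie at or above 76.1% in the H3K4me3 lists, and RUNX2 peaks stand at 92.5 and 95.5% of them on day 3.

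An H3K4me3 peak stood at 51 of the 67 genes in all 6 lists, against 51.6% of all genes. The other 16 genes fell into 4 patterns. H4c8, H2ac10, H3c8, H2bc9, H3c7, H1f3, H3c6, H4c4, H2ac4 and H4c2 had a peak in 5 lists and lacked it only in day 0 replicate 1. H4c6, H2bc1 and H2ac1 also lacked it in day 10 replicate 1. These 13 genes had a peak in replicate 2 of day 0 and none in replicate 1, a pattern seen at 7.27% of all genes. H1f6 had a peak in 1 list, and H1f7 and H1f8 in none.

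Of the 13 genes, 8 stood side by side. The stretch from H4c8 to H3c6, 32.3 kb at chr13:23530544-23562885 on GRCm38, holds H4c8, H2ac10, H3c8, H2bc9, H3c7, H4c6, H1f3 and H3c6. The H3K4me3 list of day 0 replicate 1 had 0 peaks there. The list of day 0 replicate 2 had 13, those of day 3 had 8 and 16, and those of day 10 had 8 and 13. RUNX2 had 9 and 10 peaks there on day 3. H4c8, an H4 gene at the edge of the cluster, had fold enrichments of 6.61 in day 0 replicate 2, 20.4 and 12.2 on day 3 and 6.51 and 13.6 on day 10. H1f3, a somatic H1 gene, had weaker peaks with 5.49 in day 0 replicate 2, 9.98 and 6.70 at day 3, then 4.58 and 8.23 at day 10. The peak of highest -log10 q at H3c6, an H3 gene at the other end, had 7.74 in day 0 replicate 2, 14.3 and 9.44 at day 3, then 8.20 and 8.28 at day 10. The library with the empty stretch also had the shortest H3K4me3 list, and the part of list length in this was not tested. The next genes along, H2ac8 to H3c4, had peaks in the same list.

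**Figure D3:**
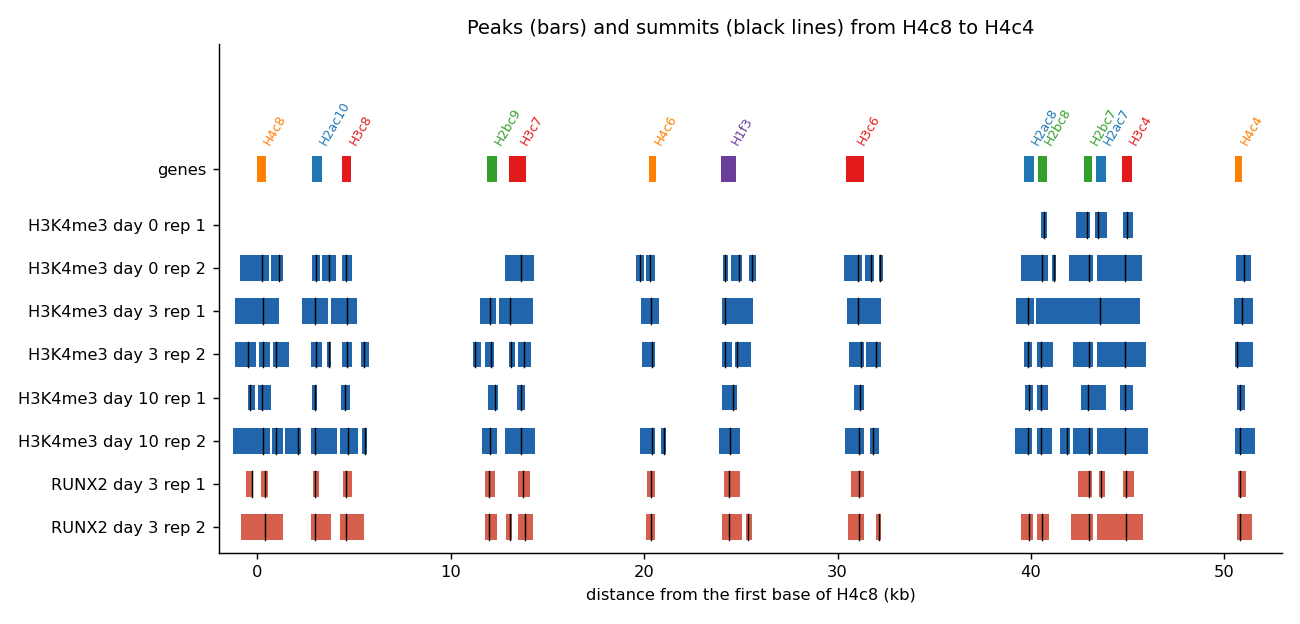
Peaks (bars) and their summits (black lines) in the 6 H3K4me3 lists (blue) and the 2 RUNX2 lists of day 3 (red) over the part of chr13C from H4c8 to H4c4, in kb from the first base of H4c8, with genes coloured by histone class. Day 0 replicate 1 has 4 peaks in this window and the other H3K4me3 lists 11 to 21. A single bar in day 3 replicate 1 runs from the gap between H2ac8 and H2bc8 to just past H3c4.

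The 10 H1 genes split by type. Besides H1f3, the clusters held the somatic genes H1f1, H1f2, H1f4 and H1f5, and each of these had H3K4me3 in all 6 lists and RUNX2 in both lists of day 3. H1f2 had fold enrichments of 3.45 and 6.68 at day 0, 27.5 and 6.20 at day 3, then 9.30 and 6.61 at day 10, with RUNX2 peaks of 4.39- and 6.03-fold on day 3. The peaks of day 0 replicate 2, day 3, day 10 replicate 2 and RUNX2 overlapped the gene. Their summits, however, lay 1305 to 1451 bp downstream of the H1f2 start, outside its extended window. H1f0, which encodes the H1 of cells that have stopped dividing, had H3K4me3 peaks of 6.27 and 9.38 at day 0, 15.9 and 13.4 at day 3, then 10.4 and 9.45 at day 10, and RUNX2 peaks of 4.03- and 11.6-fold on day 3. The 6.27-fold peak had its summit 2873 bp downstream of the H1f0 start, outside the extended window. In that list the peak over the start was 4.70-fold. H1f10, the other replacement gene, had 7.60 and 7.88 at day 0, 25.6 and 11.1 at day 3, then 13.6 and 11.9 at day 10. Its RUNX2 peaks of 6.24- and 15.2-fold ranked highest among H1 genes, at a mean percentile of 69.2 within the lists. H1f6 had only a peak of 215 bp in day 3 replicate 2, 208 bp from the start, with a 3.81-fold enrichment that was the lowest in that list when each gene is given its peak of highest -log10 q. H1f7 and H1f8 had no peak of either antibody on any day. The germ-cell H1 genes were thus the 3 with the fewest H3K4me3 lists, and one of them, H1f6, carries the CCAAT and H1 box letters printed above.

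The testis pair H2bc1 and H2ac1 at the end of chr13C had a peak in 4 of the 6 H3K4me3 lists. A narrow peak of 321 to 344 bp lay on the H2bc1 side on day 3, with its summit 288 and 305 bp from the start of H2bc1. Its fold enrichment was 10.3 in day 3 replicate 2, and day 0 replicate 2 had a peak of 7.98-fold there. Day 0 replicate 2 also had a 3.81-fold peak of 264 bp over the start of H2ac1 itself, with a -log10 q of 2.36. H2ac1 was counted on day 3 only because its extended window reached that peak, which covered 6.70 and 6.57% of the window. Without the extension H2ac1 was not marked on day 3. The RUNX2 peaks of day 3 lay at the same bases in both libraries, chr13:23933689-23934048, with 5.46- and 5.41-fold enrichment. This was not particular to the pair. RUNX2 summits of the 2 day 3 lists also lay at the same base at other genes, among them H4c11, H4c12, H1f5, H1f0 and H1f10. Whether the 2 RUNX2 libraries of day 3 are independent was not tested.

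Fold enrichment at the summit is the authors' value, taken at the peak of highest -log10 q where a gene had several, and is used here only to rank peaks within a list. Medians over histone genes were set against all peaks of the same list with a summit within 1 kb of a protein-coding start site. The histone median stood higher in 4 H3K4me3 lists and lower in 2. The measures differ, since a peak reaching several histone genes counts for each of them, and a start-site peak counts once. Counted once each, most H3K4me3 peaks at histone genes lay below the start-site median in both day 3 lists. The median over genes with a peak was 26.3 and 10.3 on day 3, against 22.5 and 9.36 over start-site peaks, which placed the histone genes at median percentiles of 72.0 and 66.1. On day 0 the medians were 4.66 and 8.32, against 6.25 and 7.61 (percentiles 19.7 and 63.2). On day 10 they were 7.97 and 11.4, against 13.5 and 10.5 (percentiles 18.2 and 63.5). The low values belong to replicate 1 of days 0 and 10, the libraries with short lists. RUNX2 at histone genes ranked low in both lists of day 3. The medians of 4.48 and 7.89 compare with 6.89 and 11.5 over start-site peaks, at percentiles of 15.9 and 20.5. Of the genes with a RUNX2 peak, 59 of 62 in replicate 1 and 56 of 64 in replicate 2 lay below the median start-site peak.

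**Figure D4:**
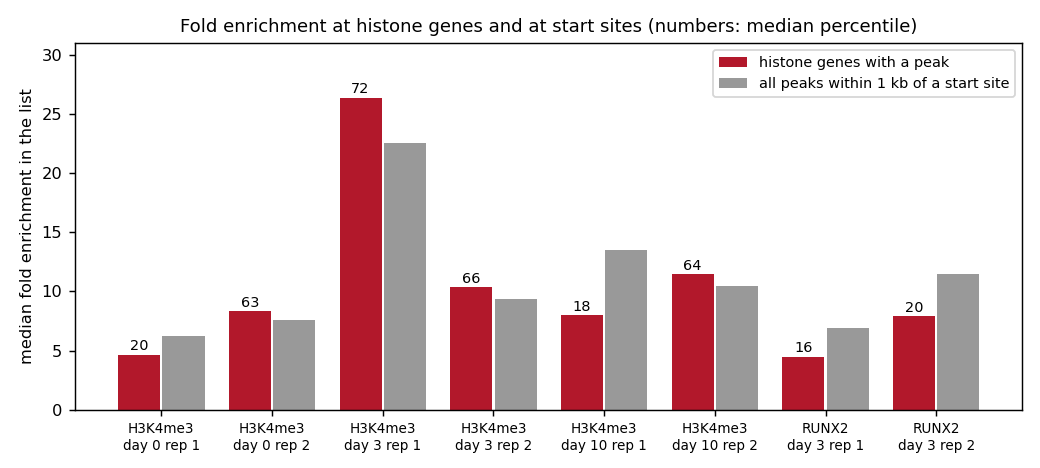
Median fold enrichment at histone genes with a peak (red) and at all peaks within 1 kb of a protein-coding start site (grey) in each H3K4me3 list and in the RUNX2 lists of day 3, with the median percentile of the histone genes above the bars. Both RUNX2 lists and H3K4me3 replicate 1 of days 0 and 10 have the red bar below the grey one. A peak that reaches several histone genes counts for each of them in the red bars and once in the grey bars.

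Within classes the ranks varied widely. On day 3 the highest mean H3K4me3 percentile over both full lists was 98.8, shared by H2ac7, H2bc7 and H3c4 under common peaks of 33.2- and 17.5-fold. The 17.5-fold peak, in replicate 2, reached only the extension of the H2bc7 window, and the peak over H2bc7 itself was 9.33-fold. H4c12 followed among H4 genes with 29.8 and 13.5-fold, a mean percentile of 95.6, and H1f10 among H1 genes with 85.7. The lowest of each class were H4c4 (43.0), H2bc9 (47.2), H1f3 (49.2), H2ac21 (59.3) and H3c6 (64.7). H4c4 had fold enrichments of 11.6 and 4.86 on day 3, and H2bc9 had 16.2 and 4.96. Across the 64 genes with a peak in both day 3 lists the percentiles of the 2 libraries correlated with r of 0.30 and Spearman rho of 0.28, a description over genes that share peaks.

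RUNX2 peaks at histone genes were confined to day 3 among the days examined. RUNX2 marked 0 of the 67 genes on day 0, against 0.0228% of all genes, 62 on day 3, against 58%, and 0 on day 10, against 0.0137%. The lists of days 0 and 10 held at most 108 peaks, so the absence of a call there says little about any single gene. The 62 genes gained RUNX2 on day 3 against day 0 (57.9% of all genes) and lost it on day 10 against day 3 (58%). None was lost on day 10 against day 0 (0.00914%). Per library, 62 and 64 genes had a peak on day 3, against 0 and 0 on day 0 and 0 and 0 on day 10. All genes reached 59.1 and 58.3% in the day 3 lists, 0.032 and 0.0411% in those of day 0 and 0.0411 and 0.0183% in those of day 10. The difference of 63 genes from day 0 had a two-sided exact permutation p of 0.333, the smallest possible. The 62 genes comprised 7 of 10 H1, 16 of 17 H2A, 15 of 16 H2B, 12 of 12 H3 and 12 of 12 H4 genes. They took in all genes of the chromosome 3, chr13A and chr13B clusters, 28 of 31 in chr13C and 2 of the 4 isolated genes. With peaks over at least 50% of the window required, RUNX2 marked 27 genes on day 3.

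RUNX2 and H3K4me3 coincided on day 3. Both marked 62 genes, against 57.6% of all genes. Among genes marked by H3K4me3 that day, RUNX2 marked 62 of 64 histone genes and 94.1% of all 13394 such genes, and among genes with no H3K4me3 peak in either list it marked 0.29%. The histone share therefore lies near that of other H3K4me3-marked genes. All 66 RUNX2 peaks at histone genes in replicate 1, and all 68 in replicate 2, had their summit inside an H3K4me3 peak of the same-numbered library, against 95.0 and 95.7% of all RUNX2 peaks in those lists. What brings the peaks of both antibodies together was not tested. The exceptions were H2ac8 and H2bc8, which carried H3K4me3 in both day 3 lists and RUNX2 only in replicate 2. There the peaks were 6.36-fold over H2ac8 and 6.52-fold over H2bc8. Neither gene had a RUNX2 peak in replicate 1, although H2bc7, H2ac7 and H3c4 beside them did.

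Besides H1f10, the genes of highest mean RUNX2 percentile in their class were H2ac19 and H3c15, which share a peak of 6.06- and 13.1-fold (61.1), H4c11 with 7.58- and 9.80-fold (58.8) and H2bc21 with 6.51- and 11.6-fold (57.9), a peak it shares with H2ac20 and H2ac21. In both lists that peak ended before the span of H2bc21, and the peaks overlapping the span had 3.30- and 5.76-fold. The peak named for H3c15 likewise lay outside the H3c15 span in both lists. The peaks overlapping the H3c15 span had 4.27- and 9.86-fold. The lowest of each class were H2ac22 and H2bc22, which share a head-to-head start region and peaks of 3.26- and 5.48-fold (14.6), H3c1 with 2.82- and 6.19-fold (14.6), H4c18 with 2.47- and 6.61-fold (14.9) and H1f2 (24.2). The peaks named for H2bc22 ended before its span, and those overlapping the span had 3.30- and 4.51-fold. The 6.61-fold peak reached only the extension of the H4c18 window, and the peak over H4c18 itself in replicate 2 was 5.06-fold. The 2.47-fold peak at H4c18, in replicate 1, was the lowest in that list when each gene is given its peak of highest -log10 q, and with a -log10 q of 4.49 it did not pass a limit of 5.

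Because the genes lie close together, many peaks covered several. Of the peaks at histone genes, 23 of 55 and 30 of 79 at day 0, 22 of 41 and 28 of 70 at day 3 and 22 of 61 and 27 of 60 at day 10 reached the windows of 2 or more histone genes. For RUNX2 on day 3 these were 25 of 66 and 29 of 68. A peak reached at most 3 genes in every list except H3K4me3 day 3 replicate 1, where 1 peak of 5360 bp at chr13:23571307-23576666, with 33.2-fold enrichment, reached the windows of H2ac8, H2bc8, H2bc7, H2ac7 and H3c4. At H2ac8 it reached only the extension of the window. In day 3 replicate 2 the same stretch was divided into separate peaks of 9.27-fold at H2bc8, 9.33-fold at H2bc7 and 17.5-fold at H2ac7 and H3c4. The 67 genes are therefore not 67 independent observations. The median H3K4me3 peak at histone genes was narrower than at other start sites in 5 of the 6 lists. It measured 584 and 870 bp at day 0, against 1025 and 1123 bp, and 673 and 1500.5 bp at day 10, against 1177 and 1588 bp. On day 3 it measured 1123 bp in replicate 2, against 1426 bp, while replicate 1 was the exception with 2606 bp, against 1847 bp. RUNX2 peaks at histone genes were narrower in both day 3 lists, at 657 and 968 bp, against 1131 and 1409 bp at other start sites.

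Summits lay mostly downstream of the starts, and 15.5 to 25.7% of them per list lay upstream. Genes without a listed promoter have no start here, so summits at them were measured to the start of a neighbour. Such summits can count as upstream, as at H3c1 and H2bc4, so the upstream shares include them. The median summit within 1 kb of a histone gene start lay 208 to 304 bp downstream of it in the 6 H3K4me3 lists, against 126 to 258 bp for other start-site peaks. For RUNX2 it lay 277 and 272 bp downstream, against 246 and 252 bp. Many histone coding sequences are nearly identical copies, and how reads that match several places were treated is not given in the sources used here, so reads in the coding part may be shared or lost between copies. Within the promoter windows, 9 of the 62 genes with a listed promoter shared an exact stretch of 75 bp, the read length, with the promoter of another histone gene. They were H2ac18, H2ac19, H2ac23, H2ac24, H2bc23, H3c14, H3c15, H4c17 and H4c18.

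At the head-to-head H2A and H2B genes, summits lay outside the stretch between the starts, which H3K4me3 peaks reached at most pairs in 5 of the 6 lists. Among genes with a listed promoter there were 9 such pairs, with starts 164 to 281 bp apart: H2bc13 and H2ac13, H2ac15 and H2bc15, H2ac22 and H2bc22, H2bc23 and H2ac23, H2ac12 and H2bc12, H2ac11 and H2bc11, H2ac8 and H2bc8, H2bc7 and H2ac7, and H2bc1 and H2ac1. Genes without a listed promoter have no strand here and could not be paired. Further pairs may thus be missing, such as H2ac6 with H2bc4 and H2ac20 with H2bc21, which lie side by side. In no list did a summit lie between the starts of any of the 9 pairs. Among 141 other divergent gene pairs with starts equally far apart, a summit lay between the starts in 0 to 6.38% per H3K4me3 list and in none of the RUNX2 lists of day 3. An H3K4me3 peak reached the stretch between the starts at 1 and 8 pairs at day 0, 8 and 8 at day 3, then 8 and 8 at day 10, against 83.7 to 97.2% of the other pairs. A single H3K4me3 peak covered both starts at 0 and 2 pairs at day 0, 6 and 2 at day 3, then 4 and 3 at day 10, against 41.8 to 92.9% of the other pairs. RUNX2 reached between the starts at 3 and 6 pairs on day 3, against 78.7 and 91.5% of the other pairs, and 1 peak covered both starts at 0 and 1 pairs, against 38.3 and 61.7%. Pairs with a peak on either side and none between numbered 4 and 2 in the RUNX2 lists of day 3. In the H3K4me3 lists they numbered 5 and 1 at day 0, and 0 in every list of days 3 and 10.

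**Figure D5:**
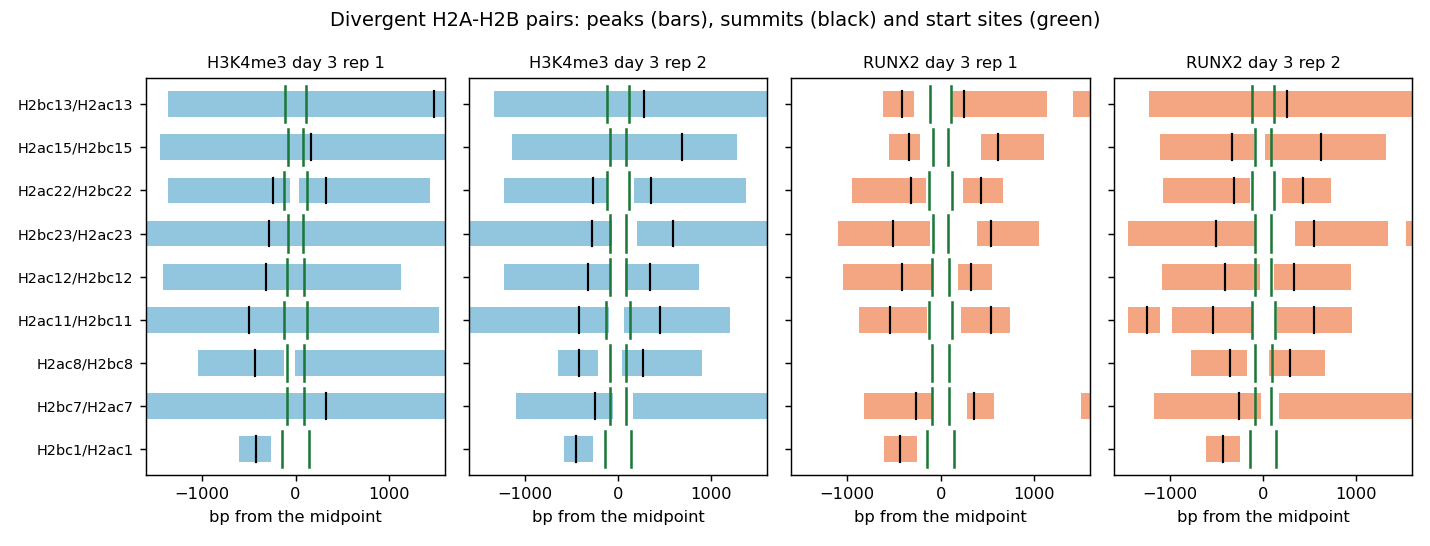
Peaks (bars) and summits (black lines) around the 9 head-to-head H2A and H2B pairs with listed promoters on day 3, in bp from the midpoint between the 2 starts, which are drawn as green lines, for both H3K4me3 and both RUNX2 libraries. No summit falls between the green lines, and at the H2bc1 and H2ac1 pair a peak stands on the H2bc1 side only.

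Genes for factors of histone mRNA synthesis and processing were mostly marked as well. Of 20 listed, 19 were found in the annotation. They include Npat, Casp8ap2, whose protein joins NPAT in histone locus bodies, Slbp, which encodes the stem-loop binding protein, and Lsm10 and Lsm11, which encode parts of the U7 particle that cuts histone pre-mRNA. H3K4me3 marked 18 of the 19 at day 0, all 19 at day 3 and 18 at day 10, against 51.8, 61.2 and 56.5% of all genes. RUNX2 marked 19 on day 3, against 58% of all genes, and 0 on days 0 and 10. Npat had H3K4me3 fold enrichments of 7.00 and 8.37 at day 0, 19.2 and 10.4 at day 3, then 16.8 and 9.68 at day 10, and RUNX2 peaks of 5.60- and 14.0-fold on day 3. Lsm10 was the exception, without a peak in replicate 1 of days 0 and 10. The 9 listed genes for replacement histones such as H3f3a, H3f3b, H2az1 and Cenpa had H3K4me3 in all 6 lists and RUNX2 in both lists of day 3.

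The marks did not spread over every gene inside chr13C. Of 6 other protein-coding genes lying within it, Hfe, an iron regulator, had H3K4me3 in all 6 lists and RUNX2 on day 3. Trim38 and the transporter genes Slc17a1, Slc17a2, Slc17a3 and Slc17a4, which stand between H1f1 and the H2bc1 and H2ac1 pair, had no peak of either antibody in any list.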

How the data were processed

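Peak lists of 12 ChIP libraries were read, 2 per antibody and day, and the 2 input libraries were not analysed here. Per the submitters' processing notes, 75-bp reads went through Trim Galore, HISAT2 2.2.0, FastQC and MACS2; settings, duplicates, multiple matches and control are not stated there. Per the narrowPeak column order, the deposited lists give each peak's position and summit, a score, the fold enrichment as a ratio to local background, and −log10 p-value and q-value. These values of the authors served only within a list, since read numbers are unknown.

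The notes name GRCm39. The lists were read as GRCm38 because 34.2 to 65.8% of H3K4me3 summits lay within 1 kb of a start in the RefSeq GRCm38.p6 table, and 2.59 to 3.21% after a shift of 20 kb. Start sites were read from the RefSeq promoter table, which gives strand. The genes and lists were chosen with earlier results of these data known. A gene gained a peak between 2 days when both libraries of the later day and neither of the earlier had one, and lost it in the opposite case. Where several peaks lay at a gene, the one of highest −log10 q gave its fold enrichment, whose percentile was taken within the list. Divergent pairs have starts within 1000 bp and a listed promoter for both genes. Library counts were tested by two-sided exact permutation (SciPy 1.17.1, threshold 0.05). Named genes were those with an incomplete H3K4me3 pattern, those with H3K4me3 and without RUNX2 on day 3, all H1 and isolated genes, the class extremes by mean day 3 percentile, and those under the peak reaching most genes. Alternatives changed the window, the overlap, the q limit, the list length and the libraries. The scripts were tested on simulated data.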

Additional observations from a re-analysis of the deposited data

How the results depend on the processing

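The RUNX2-marked genes of day 3 numbered 61 or more under a -log10 q of at least 5, equal list lengths, windows extended by 1000 bp and a peak in either library. They numbered 59 without the extension and 58 with the summit required inside the extended span. Requiring peaks to cover at least 50% of the extended span lowered them most, to 27 genes marked on day 3, 27 gained against day 0, 27 lost on day 10 and 27 with both antibodies. The same rule gave 16 H3K4me3-marked genes on day 0 and 37 on day 10, with 4 gained on day 3 and 1 on day 10 against day 0. Requiring the summit inside the extended span gave 40 marked on day 3 and 38 with both antibodies, with 1 gained and 3 lost on day 3 and 1 gained and 1 lost on day 10 against day 0. It reversed the difference per library, to -5.5 genes for day 3 against day 0 and 7 for day 10 against day 3, where 1 summit of a wide peak stands for several genes. Without extension 1 gene was gained on day 3 and 1 on day 10 against day 0. With 1000 bp, and likewise with a peak in either library, 1 was gained on day 3 against day 0 and 1 lost on day 10 against day 3.

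Leaving out 1 library at a time gave 0 to 13 genes gained on day 3 and 0 to 10 on day 10 against day 0, and 0 to 3 lost on day 10 against day 3. The difference per library ranged from -1.5 to 11.5 genes for day 10 against day 0. With the replicate number as a block, the difference of 7 genes between day 3 and day 0 had an exact p of 0.5, the smallest that 2 pairs allow, and no call changed. With 2 numbers, whether they pair libraries is not shown by the correlations of 0.29 to 0.461 between same-numbered deviations. A peak list without read depth limits every count, and the lists of days 0 and 10 for RUNX2 are too short to rank.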

Other observations

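H2ac14, annotated as a pseudogene at chr13:21721442-21721801 inside chr13A and therefore outside the 67 genes, lay under peaks that also reach the window of the coding gene H2bc14, where they were counted. Their H3K4me3 fold enrichments were 3.86 and 8.03 at day 0, 20.8 and 14.2 at day 3, then 10.1 and 14.0 at day 10. RUNX2 peaks of 4.43- and 9.15-fold stood there on day 3, and none on days 0 and 10. It was chosen after its values were seen.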
